A study of Mus musculus with 21 samples.

Results

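The genes described here are 7 mouse genes of vessel sprouting and chemokine guidance, chosen by symbol from the 23827 rows that each deposited file lists: *Apln*, *Aplnr*, *Esm1*, *Cxcr4*, *Cxcl12*, *Pdgfb* and *Adm*. Each symbol matched a single row, and all 7 rows were tested in every comparison. The measurements were RNA-seq of 21 samples from E14.5 embryos, in 7 groups of 3. All embryos were heterozygous for Gt(ROSA)26Sor-mCherry-Rpl10a, an allele made from 1 targeted ES cell clone that expresses an mCherry-tagged ribosomal protein after Cre recombination, so that ribosome-bound RNA can be pulled down from the recombined cells (translating ribosome affinity purification, TRAP). With Sox2Cre+/-, which recombines in the whole embryo proper, the transcriptome (total RNA) and the translatome (ribosome-bound RNA) of forebrain and of kidney were sequenced from the same tissue samples. With Cdh5CreERT2+/-, driven by the VE-cadherin promoter and activated by tamoxifen given by gavage, the endothelial cell (EC) translatomes of forebrain and kidney were obtained, and with Emx1Cre+/- the translatome of the dorsal telencephalic neural lineage. Organs were pooled within a sample, and the dissected forebrain included part of the diencephalon.

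During angiogenesis, a tip cell leads each vessel sprout and follows guidance cues, while stalk cells behind it form the tube. Apelin (*Apln*), endocan (*Esm1*), adrenomedullin (*Adm*), the chemokine receptor *Cxcr4* and platelet-derived growth factor B (*Pdgfb*) are widely used tip cell markers, and PDGF-B recruits pericytes, the mural cells around capillaries. Apelin acts on the G protein-coupled receptor *Aplnr*, and the chemokine CXCL12 acts on CXCR4, a pair that guides migrating neurons, blood precursors and endothelial cells alike.

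On GRCm38, the build the authors used, *Apln* (NM_013912) lies at chrX:48025146-48034853 on the minus strand and *Aplnr* (NM_011784) at chr2:85136225-85139923 on the plus strand. *Adm* (NM_009627) lies at chr7:110627661-110629820 on the plus strand and *Esm1* (NM_023612) at chr13:113209659-113218098 on the plus strand. *Pdgfb* (NM_011057) lies at chr15:79995874-80014977 on the minus strand, *Cxcr4* (NM_009911) at chr1:128588199-128592293 on the minus strand and *Cxcl12* at chr6:117168535-117181367 on the plus strand. *Esm1*, *Pdgfb* and *Adm* lie across genes of the opposite strand (*Gzmk*, *Gm41361* and *Gm28863*), but they share 0 exonic bases with them, and *Gzmk* had 0 to 5 reads in every library.

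*Cxcl12* was the only one of the 7 rows that joined several transcripts, and its RPKM and its counts gave different fold changes in the EC comparisons. The ends of their coding sequences are shown because they tell the transcripts apart: all 3 share the first 267 coding bases, of which the last 30 are in lower case, and the bases that follow, stop codon included, are in capitals.

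NM_021704: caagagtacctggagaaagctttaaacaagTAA

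NM_013655: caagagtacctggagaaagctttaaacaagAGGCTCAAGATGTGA

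NM_001012477: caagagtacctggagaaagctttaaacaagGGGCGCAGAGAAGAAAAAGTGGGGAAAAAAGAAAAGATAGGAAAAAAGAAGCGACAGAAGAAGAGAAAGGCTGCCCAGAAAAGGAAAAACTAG

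In GENCODE vM21, the matching transcripts are 1878, 3132 and 5627 bases long, whereas their coding lengths are 270, 282 and 360 bases, so that they differ mostly outside the coding sequence.

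The promoters of *Apln*, *Esm1*, *Cxcr4* and *Adm* are shown because these genes rose together in both EC translatomes. Each is the 250 bases before the start of the gene, 5′ to 3′ on the gene's strand, from RefSeq (GRCm38.p6), which gave a promoter for these and for *Cxcl12*, 5 of the 7 genes. Capitals mark the ETS core GGAA and the hypoxia response cores ACGTG and GCGTG, each searched on both strands.

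Apln, chrX:48034854-48035103, minus strand: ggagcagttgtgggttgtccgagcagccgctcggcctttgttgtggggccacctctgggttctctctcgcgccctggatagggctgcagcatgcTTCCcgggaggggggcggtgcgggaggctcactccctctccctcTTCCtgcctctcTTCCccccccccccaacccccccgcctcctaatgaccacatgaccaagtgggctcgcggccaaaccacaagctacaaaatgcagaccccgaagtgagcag

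Esm1, chr13:113209409-113209658, plus strand: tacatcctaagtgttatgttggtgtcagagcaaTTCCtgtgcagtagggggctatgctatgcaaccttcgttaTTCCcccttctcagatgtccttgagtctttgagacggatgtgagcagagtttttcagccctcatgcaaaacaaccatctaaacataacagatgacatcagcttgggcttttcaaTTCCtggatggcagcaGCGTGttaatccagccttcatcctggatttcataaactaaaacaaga

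Cxcr4, chr1:128592300-128592549, minus strand: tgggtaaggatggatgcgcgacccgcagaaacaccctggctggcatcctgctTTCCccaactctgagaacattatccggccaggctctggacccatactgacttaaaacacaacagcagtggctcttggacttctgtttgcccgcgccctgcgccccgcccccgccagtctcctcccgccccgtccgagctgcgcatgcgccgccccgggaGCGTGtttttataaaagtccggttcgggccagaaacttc

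Adm, chr7:110627407-110627656, plus strand: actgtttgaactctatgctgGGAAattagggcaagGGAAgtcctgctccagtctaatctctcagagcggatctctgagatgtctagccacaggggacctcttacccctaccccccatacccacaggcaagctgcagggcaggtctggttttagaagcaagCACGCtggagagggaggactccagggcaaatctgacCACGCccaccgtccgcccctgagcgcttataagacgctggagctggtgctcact

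The ETS core was found 3 times in the *Apln*, 3 times in the *Esm1*, 1 time in the *Cxcr4* and 2 times in the *Adm* promoter. Of all 32851 promoters of this length, 93.4% had it at least once and 76.8% had it 2 or more times, with a median of 3. The *Cxcl12* promoter, which is not shown, held 3 ETS cores and 0 hypoxia cores. The hypoxia core was found 2 times in the *Adm* promoter, 1 time in those of *Esm1* and *Cxcr4* and 0 times in that of *Apln*, against 38.6% of all promoters with at least 1 match and 16.7% with 2 or more. These matches describe the letters of the window only.

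Total counts ranged from 21760652 to 79231692 reads per library, and no library was left out. The 10 endothelial markers checked, among them *Cdh5*, *Pecam1* and *Kdr*, summed to 3422 to 3590 RPKM (reads per unit of transcript length and of library size) in the forebrain EC and 2284 to 2722 RPKM in the kidney EC translatome, against 189 to 212 RPKM in the forebrain and 428 to 458 RPKM in the kidney translatome. In the forebrain Emx1 translatome they summed to 19.9 to 23.4 RPKM and none of the 10 was at 0, so the samples labelled as neural lineage held a low level of endothelial marker RNA. The EC translatomes held RNA of other cells too: 6 markers of the excitatory neuron and Emx1 lineage summed to 318 to 431 RPKM in the forebrain EC against 1774 to 1826 RPKM in the forebrain translatome, and 4 markers of kidney stroma to 54.3 to 68.0 RPKM in the kidney EC against 248 to 285 RPKM in the kidney translatome. Some other markers were higher in the EC than in the organ translatome. All 4 podocyte markers were called as higher in the kidney EC (median log2 fold change 1.72, 0.79 to 2.25), with summed levels of 217 to 260 against 72.0 to 99.7 RPKM, and all 4 were lower in forebrain than in kidney EC. The same list also rose in the forebrain EC, to 84.4 to 87.6 against 21.8 to 22.9 RPKM, with 2 of 4 called as higher. The part of podocyte RNA in the rise of this list in the kidney EC was not tested. Of 6 meninges and fibroblast markers, 4 were higher in the forebrain EC (median 0.84), with 149 to 209 against 106 to 119 RPKM. Of 5 Cajal-Retzius cell markers, 2 were higher and 2 lower there, with 140 to 236 against 60.7 to 63.0 RPKM. Of 8 mural cell markers, 2 were higher in each EC translatome, while 4 were lower in the forebrain EC and 5 in the kidney EC. Across all rows, 24.8% were called as higher in the forebrain EC and 16.7% in the kidney EC. Called as lower were 21.4% and 15.0%. Between the EC translatomes, 16.9% were lower in forebrain. The part of these cells in the values of the 7 genes was not tested. In such bulk samples, fewer cells of a type and less RNA per cell cannot be told apart.

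**Figure D1:**
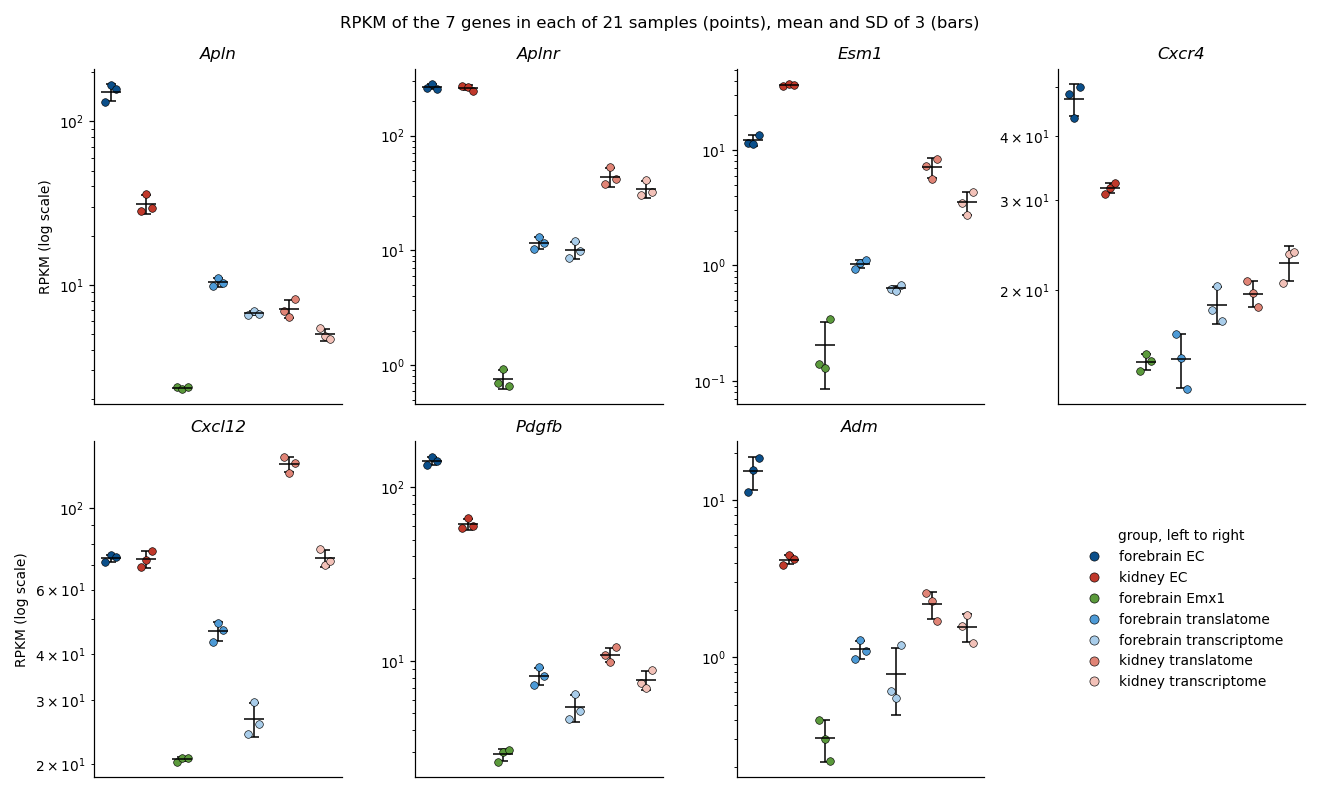
RPKM of the 7 genes on a log scale in each of 21 samples; points are samples, and bars give the mean and SD of 3. The EC translatomes are the highest groups for all genes except *Cxcl12*, which is highest in the kidney translatome (125 to 138 RPKM), and the Emx1 translatome has the lowest mean for all 7 genes, overlapping the forebrain translatome for *Cxcr4*.

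The first question was which of the genes were more abundant on endothelial ribosomes than on those of the whole organ. In the forebrain, all 7 were higher in the EC translatome than in the organ translatome, by 3.20-fold (*Cxcl12*) to 28.0-fold (*Aplnr*) in the counts, and their median was 4.06 on the log2 scale. In mean RPKM the ratio for *Cxcl12* was only 1.58. In the kidney, 6 were higher, by 2.06-fold (*Cxcr4*) to 7.63-fold (*Aplnr*), and *Cxcl12* was not called. Calls required an adjusted p under 0.001 in edgeR's quasi-likelihood test, adjusted over all rows, and across all rows 46.2% were called in the forebrain (24.8% as higher) and 31.7% in the kidney (16.7% as higher). The samples of the 2 groups did not overlap in RPKM for any of the 7 genes in either organ, which held for 70.1% of all rows in the forebrain and 64.9% in the kidney. For *Cxcl12* in the kidney the EC samples lay below the organ samples, and in every other case above them. The 10 endothelial markers were all called as higher, with a median log2 fold change of 4.53 (3.96 to 4.77) in the forebrain and 2.98 (2.48 to 3.18) in the kidney. In the forebrain, *Apln*, *Pdgfb* and *Adm* (4.06 to 4.40) lay within the range of the markers and *Aplnr* (4.81) above it. *Esm1* (3.86), *Cxcr4* (1.98) and *Cxcl12* (1.68) lay below it there. In the kidney, *Aplnr* (2.93), *Pdgfb* (2.85) and *Esm1* (2.73) lay within the range and *Apln* (2.48) at its lower end. *Adm* (1.29), *Cxcr4* (1.04) and *Cxcl12* (0.09) lay below it. According to the study's sample table, the groups of these comparisons shared no sequencing lane, and the same held for the comparisons between organs and with the Emx1 translatome, so that lane and group cannot be told apart there. The EC and Emx1 groups also differed from the organ groups in Cre driver, and the EC driver was activated by tamoxifen. Driver and tamoxifen likewise cannot be told apart from group in those comparisons. With scaling by total reads in place of TMM, the median log2 fold change of all rows moved by -0.30 in the forebrain and -0.37 in the kidney, and the share of calls that were higher went from 53.7% to 36.1% and from 52.7% to 21.7%, but the same number of the 7 genes, 7 and 6, was called as higher.

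**Figure D2:**
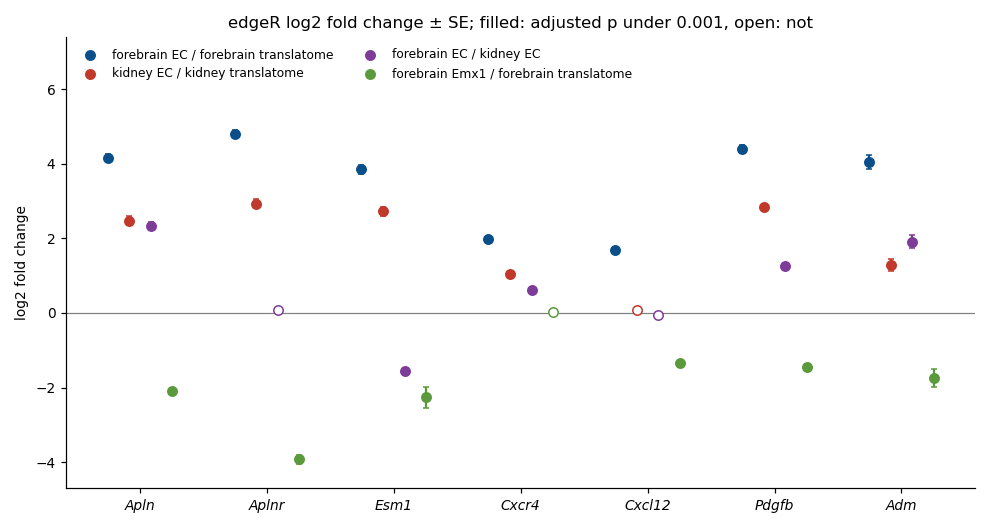
log2 fold changes of the 7 genes (y axis, edgeR, ± SE, n = 3 per group) in 4 comparisons; filled points passed an adjusted p of 0.001. All 7 blue points (forebrain EC) and 6 of 7 red points (kidney EC) are filled above 0, and 6 of 7 green points (Emx1) are filled below 0.

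*Apln*, the ligand of the apelin receptor, differed most between the endothelial cells of the organs. Its RPKM was 132, 167 and 157 in the forebrain EC translatome, against 9.83, 11.0 and 10.2 in the forebrain translatome, and 28.3, 35.8 and 29.4 in the kidney EC, against 6.95, 6.34 and 8.16 in the kidney translatome. All EC samples lay above all organ samples, and all forebrain EC samples above all kidney EC samples. The log2 fold change was 4.17 ± 0.10 (SE) in the forebrain (adjusted p = 1.3e-12, edgeR), 2.48 ± 0.11 in the kidney (adjusted p = 1.5e-08) and 2.33 ± 0.11 between forebrain and kidney EC (adjusted p = 2.2e-08). The level fell from forebrain EC through kidney EC, forebrain translatome, kidney translatome (7.15 ± 0.93 RPKM, SD) and forebrain transcriptome (6.68 ± 0.18) to kidney transcriptome (4.97 ± 0.41) and Emx1 (2.34 ± 0.033), where only kidney translatome and forebrain transcriptome overlapped.

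*Aplnr*, the receptor for apelin and for the peptide encoded by *Apela*, was high in both endothelia, at overlapping levels. The RPKM was 261, 282 and 256 in the forebrain EC and 272, 267 and 246 in the kidney EC translatome, and these samples overlapped. In the organ translatomes it was 10.3, 13.0 and 11.6 in forebrain and 37.5, 52.9 and 41.4 in kidney, so the kidney was higher in every sample. Between the endothelia the log2 fold change was 0.07 ± 0.08 (adjusted p = 0.47, edgeR), while against the organ it was 4.81 ± 0.11 in the forebrain (adjusted p = 7.3e-13) and 2.93 ± 0.12 in the kidney (adjusted p = 5.8e-09). Below the endothelia, the order was kidney translatome (43.9 ± 8.00 RPKM, SD), kidney transcriptome (34.3 ± 5.51), forebrain translatome (11.6 ± 1.37), forebrain transcriptome (10.1 ± 1.76) and Emx1 (0.76 ± 0.14), and within each organ translatome and transcriptome overlapped. *Apln* and *Aplnr* thus differed in the organ contrast: the ligand was 5.05-fold higher in forebrain than in kidney EC, and the receptor 1.05-fold without a call.

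*Adm*, a vasodilator peptide hormone that signals through the receptor *Calcrl* with its co-receptors, was the rarest of the 7 in the kidney EC. Its RPKM was 11.3, 15.6 and 18.6 in the forebrain EC and 3.87, 4.45 and 4.21 in the kidney EC translatome, without overlap. The organ translatomes held 0.98, 1.28 and 1.10 RPKM in forebrain and 2.55, 2.27 and 1.70 RPKM in kidney. The log2 fold change over the organ was 4.06 ± 0.19 in the forebrain (adjusted p = 6.8e-10, edgeR) and 1.29 ± 0.17 in the kidney (adjusted p = 6.7e-05), and that of forebrain over kidney EC was 1.91 ± 0.17 (adjusted p = 3.2e-06). In limma on log2(RPKM + 1), the kidney value fell short of the threshold (0.71, adjusted p = 2.1e-03). The forebrain transcriptome (0.61, 0.55 and 1.20 RPKM) overlapped the forebrain translatome. From the kidney translatome (2.17 ± 0.43 RPKM, SD) down to the forebrain transcriptome (0.79 ± 0.36), each group overlapped the next, and Emx1 was lowest (0.31 ± 0.092).

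*Esm1*, which encodes a secreted proteoglycan, was the only one of the 7 called as lower in forebrain than in kidney EC. The RPKM was 11.6, 11.2 and 13.6 in the forebrain EC and 36.1, 37.6 and 36.9 in the kidney EC translatome, a log2 fold change of -1.56 ± 0.08 (adjusted p = 5.1e-08, edgeR). The whole organs differed in the same direction, with 0.94, 1.04 and 1.11 RPKM in the forebrain and 7.35, 5.58 and 8.40 RPKM in the kidney translatome. Against its organ, *Esm1* was higher by 3.86 ± 0.12 in the forebrain EC (adjusted p = 1.2e-11) and by 2.73 ± 0.12 in the kidney EC (adjusted p = 1.6e-08) on the log2 scale. In limma on log2(RPKM + 1), the difference of these enrichments between the organs fell short of the threshold (0.45, adjusted p = 0.038). No neighbouring groups overlapped as its level fell from kidney EC (36.9 ± 0.74 RPKM) to Emx1 (0.20 ± 0.12).

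*Pdgfb*, the ligand that endothelial cells present to pericytes, had 134, 150 and 142 RPKM in the forebrain EC and 58.1, 66.5 and 59.9 RPKM in the kidney EC translatome. The organ translatomes held 7.31, 9.19 and 8.19 RPKM in forebrain and 10.8, 9.89 and 12.0 RPKM in kidney. All EC samples thus lay above all organ samples, and the forebrain EC above the kidney EC. The log2 fold change over the organ was 4.40 ± 0.10 in the forebrain (adjusted p = 7.8e-13, edgeR) and 2.85 ± 0.08 in the kidney (adjusted p = 7.2e-10), and that of forebrain over kidney EC was 1.25 ± 0.08 (adjusted p = 1.5e-07). The forebrain translatome overlapped the kidney transcriptome (7.45, 6.99 and 8.82 RPKM), and below them followed the forebrain transcriptome (5.41 ± 0.93 RPKM, SD) and Emx1 (2.90 ± 0.24).

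*Cxcr4*, the chemokine receptor, was also well represented outside the EC translatomes. Its RPKM was 48.5, 43.4 and 49.9 in the forebrain EC and 30.9, 31.7 and 32.4 in the kidney EC translatome, against 16.4, 14.7 and 12.8 in the forebrain and 20.8, 19.7 and 18.5 in the kidney translatome. The EC samples were above the organ samples, by 1.98 ± 0.09 on the log2 scale in the forebrain (adjusted p = 5.8e-10, edgeR) and 1.04 ± 0.07 in the kidney (adjusted p = 3.4e-07). Forebrain EC exceeded kidney EC by 0.62 ± 0.07 (adjusted p = 2.2e-05). Next came the kidney transcriptome (22.6 ± 1.70 RPKM, SD), the kidney translatome (19.7 ± 1.16) and the forebrain transcriptome (18.7 ± 1.52), each overlapping the next, and then the forebrain translatome (14.6 ± 1.81) and Emx1 (14.5 ± 0.53), which overlapped as well.

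*Cxcl12*, the ligand of CXCR4, was the exception to the endothelial pattern. Its RPKM was 71.2, 74.4 and 73.6 in the forebrain EC and 69.0, 72.4 and 76.5 in the kidney EC translatome, which overlapped, with a log2 fold change of -0.06 ± 0.08 (adjusted p = 0.58, edgeR). The organ translatomes had 43.1, 48.7 and 46.6 RPKM in forebrain and 138, 125 and 133 RPKM in kidney, so that all kidney EC samples lay below all kidney translatome samples in RPKM. In the read counts, however, the kidney EC did not differ from the kidney translatome by the threshold (log2 fold change 0.09 ± 0.08, adjusted p = 0.33), while the forebrain EC was higher by 1.68 ± 0.08 (adjusted p = 3.8e-10). In limma on log2(RPKM + 1), the kidney EC was called as lower, by -0.85 (adjusted p = 3.4e-05), and scaling of the counts by total reads gave -0.28 (adjusted p = 7.0e-03). With the kidney transcriptome in place of the translatome as the reference, the kidney EC was called as higher in the counts, by 0.90 (adjusted p = 2.9e-06, edgeR). In RPKM these groups overlapped, with 72.6 ± 3.80 in the kidney EC and 73.1 ± 3.84 in the kidney transcriptome (SD). Likewise, the ratio of mean RPKM of forebrain EC to forebrain translatome was 1.58, against a fold change of 3.20 from counts. The RPKM carry no TMM factors, and scaling of the counts by total reads gave a log2 fold change of 1.38 there (adjusted p = 1.6e-09, edgeR). In the kidney the 4 stroma markers were all lower in the EC than in the organ translatome, with a median log2 fold change of -1.77, and their part in the *Cxcl12* value was not tested.

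The transcript length by which the *Cxcl12* counts were divided, recovered from count and RPKM, differed between groups. It was 3913, 4059 and 4200 bases in the forebrain EC and 4195, 4438 and 4471 bases in the kidney EC, and these overlapped. In the translatomes it was 2461 ± 7.02 bases (SD, n = 3) in forebrain and 2890 ± 26.0 in kidney, in the transcriptomes 2657 ± 47.8 and 3143 ± 25.8, and in Emx1 2087 ± 9.54, without overlap between any of these groups. The highest sample was 2.15 times the lowest, and 10 of 2555 rows with several accessions and at least 100 reads in every sample (0.391%) reached this ratio, whereas the other 6 genes varied by at most 0.176%. The EC values lie between the lengths of NM_013655 and NM_001012477, and the Emx1 values between those of NM_021704 and NM_013655. Each file has a single count for the row, so the share of each transcript was not measured.

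**Figure D3:**
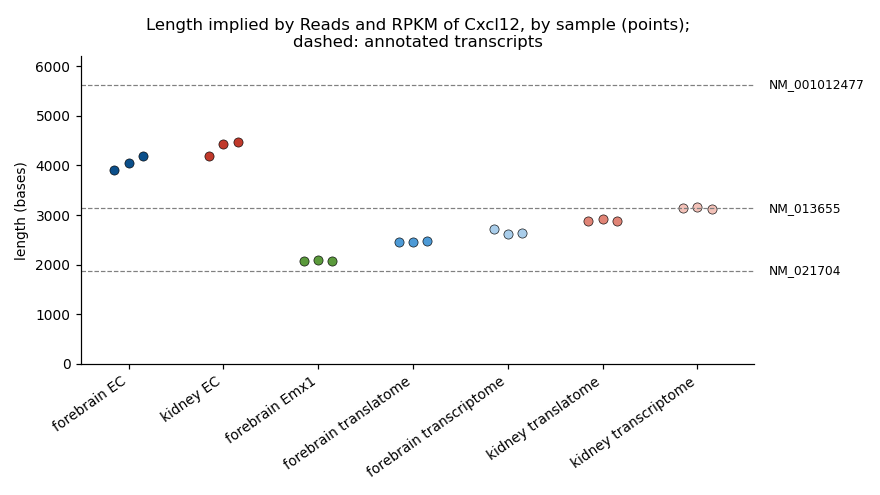
Length in bases (y axis) by which the *Cxcl12* counts were divided, in each of the 21 samples; dashed lines mark the 3 annotated transcripts. The EC samples sit between 3913 and 4471 bases and the Emx1 samples between 2080 and 2098.

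The next comparison was between the endothelial cells of the organs. Of the 7 genes, 4 were higher in forebrain than in kidney EC (*Apln*, *Adm*, *Pdgfb* and *Cxcr4*), 1 was lower (*Esm1*) and 2 were not called (*Aplnr* and *Cxcl12*), where 37.0% of all rows were called, 20.1% as higher and 16.9% as lower. The samples of 5 of the 7 genes did not overlap, as held for 65.6% of all rows. Of the 10 endothelial markers, 3 were higher and 1 was lower, with a median log2 fold change of 0.16 (-1.24 to 2.04). In the whole organs the order differed: *Apln* was higher in forebrain, by 0.73 ± 0.10 on the log2 scale in the translatomes (adjusted p = 1.6e-05, edgeR) and by 0.61 ± 0.08 in the transcriptomes (adjusted p = 3.6e-05), whereas *Aplnr*, *Esm1* and *Cxcl12* were lower in both. These 3 changed by -1.72 ± 0.11, -2.59 ± 0.17 and -1.55 ± 0.06 in the translatomes, where 53.4% of all rows were called (27.2% as higher), and by -1.57 ± 0.13, -2.29 ± 0.17 and -1.52 ± 0.06 in the transcriptomes, where 53.5% were called (27.2% as higher). All 7 genes were without overlap in RPKM in both, as were 73.0% and 74.4% of all rows. The RPKM carry no TMM factors, unlike the fold changes, and such scaling moved 22 of the 49 mean RPKM of the 7 genes by over 1 SD. *Pdgfb*, *Cxcr4* and *Adm* were called in neither, with log2 fold changes between -0.81 and -0.08. Scaling by total reads moved the median of all rows by -0.18 in the transcriptomes and -0.19 in the translatomes, and with it *Adm* was called as lower in the translatomes (-0.96, adjusted p = 9.5e-04). In limma on log2(RPKM + 1), *Apln* fell short of the threshold in both (0.37, adjusted p = 2.0e-03, in the transcriptomes and 0.48, adjusted p = 2.7e-03, in the translatomes).

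The difference between the organs in the enrichment of EC over organ translatome was tested as an interaction in 12 samples. It was called as higher in the forebrain for all 7 genes, where 25.1% of all rows were called, 16.5% as higher and 8.60% as lower. The values were 1.72 ± 0.15 for *Apln*, 1.90 ± 0.16 for *Aplnr*, 1.61 ± 0.11 for *Cxcl12* and 1.57 ± 0.13 for *Pdgfb*, on the log2 scale, all within the range of the 10 endothelial markers, which were all called and lay between 1.43 and 1.90 (median 1.55). *Adm* lay above this range (2.80 ± 0.27), and *Esm1* (1.16 ± 0.19) and *Cxcr4* (0.96 ± 0.12) below it. Summed endothelial markers were 428 to 458 RPKM in the kidney and 189 to 212 RPKM in the forebrain translatome, so the organ references differed as well. The difference of each gene from the markers was not tested.

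**Figure D4:**
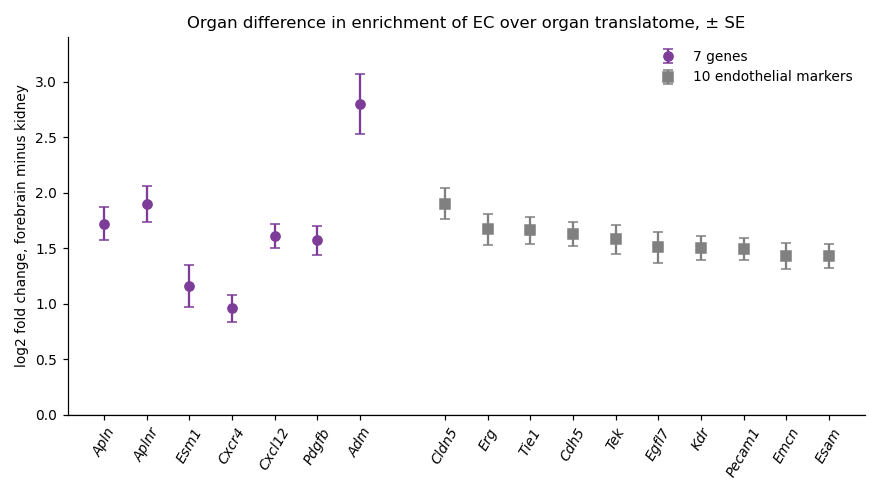
Difference between forebrain and kidney in the log2 enrichment of EC over organ translatome (y axis, ± SE, 12 samples) for the 7 genes (circles) and 10 endothelial markers (squares). *Adm* stands at 2.80, *Cxcr4* at 0.96 and the markers between 1.43 and 1.90.

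In the Emx1 translatome, 6 of the 7 genes were lower than in the forebrain translatome and *Cxcr4* was not called, where 22.0% of all rows were called and 12.8% as lower. The samples of these 6 did not overlap, as held for 51.4% of all rows. *Aplnr* had 0.70, 0.92 and 0.66 RPKM there, a log2 fold change of -3.92 ± 0.12 (adjusted p = 2.4e-12, edgeR). *Apln* had 2.36, 2.30 and 2.36 RPKM (-2.09 ± 0.07, adjusted p = 9.8e-12) and *Pdgfb* 2.63, 3.01 and 3.06 RPKM (-1.45 ± 0.09, adjusted p = 1.0e-08). *Cxcl12* had 20.3, 20.8 and 20.8 RPKM (-1.34 ± 0.05, adjusted p = 5.7e-11). *Esm1* and *Adm* rested on few reads, 9 to 38 and 13 to 44 per library, and changed by -2.26 ± 0.28 (adjusted p = 1.2e-05) and -1.75 ± 0.24 (adjusted p = 3.5e-05). Against the forebrain transcriptome, *Adm* was -1.16 (adjusted p = 5.2e-03) and lost its call. *Cxcr4*, which is expressed by migrating neurons as well as by vessels, had 13.9, 15.0 and 14.5 RPKM, overlapping the forebrain translatome (0.03 ± 0.08, adjusted p = 0.77). The 10 endothelial markers fell by a median of -3.83 (-4.47 to -2.25), so that *Apln*, *Pdgfb*, *Cxcl12*, *Adm* and *Cxcr4* lay above their range. Among the calls of this comparison 41.7% were higher, and 29.9% with scaling by total reads, under which *Cxcr4* was -0.02 (adjusted p = 0.87).

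Ribosome-bound RNA was compared with total RNA of the same organ. In the forebrain, *Apln* (0.66 ± 0.07, adjusted p = 2.5e-06, edgeR), *Cxcl12* (0.72 ± 0.07, adjusted p = 4.6e-07) and *Pdgfb* (0.63 ± 0.12, adjusted p = 3.0e-04) were higher in the translatome on the log2 scale, where 37.1% of all rows were called and 18.6% as higher. In the kidney, *Esm1* (1.02 ± 0.18, adjusted p = 8.4e-04) and *Cxcl12* (0.73 ± 0.05, adjusted p = 1.2e-06) were higher, where 30.7% were called, 14.9% as higher and 15.8% as lower. In RPKM, 5 of the 7 genes did not overlap in the forebrain and 4 in the kidney, against 60.8% and 56.8% of all rows. The kidney translatome held 7.35, 5.58 and 8.40 RPKM of *Esm1* against 3.50, 2.76 and 4.34 RPKM in the transcriptome, without overlap. *Cxcr4* was not called and had a negative sign in both organs, -0.32 ± 0.09 (adjusted p = 7.8e-03) and -0.19 ± 0.07 (adjusted p = 0.045). The samples with the same number came from the same tissue, and with the replicate number as a block *Esm1* (0.73, adjusted p = 1.2e-04) was also called as higher and *Cxcr4* (-0.32, adjusted p = 1.7e-04) as lower in the forebrain. In the kidney, the block fit called 5 genes as higher and *Cxcr4* (-0.19, adjusted p = 5.3e-04) as lower, in a fit with infinite prior degrees of freedom, where all rows share a common spread, against 5.98 without the block. With the sequencing lane as a term, *Esm1* in the kidney was 1.26 (adjusted p = 2.5e-03) and lost its call. The call of *Esm1* in the kidney was lost when any of transcriptome replicates 1 and 2 and translatome replicates 1 and 3 was left out (adjusted p = 1.5e-03 to 5.5e-03), and that of *Pdgfb* in the forebrain without transcriptome replicate 1 or translatome replicates 2 or 3 (1.1e-03 to 1.6e-03). The difference between the organs was called for 0 of the 7 genes, where 6.47% of all rows were called (2.35% as higher and 4.12% as lower), with values between -0.31 ± 0.26 (*Esm1*) and 0.12 ± 0.17 (*Pdgfb*).

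The partners of these ligands and receptors were followed in a list of 15 genes. In the forebrain EC 5 were higher and 3 lower than in the organ translatome, against 24.8% and 21.4% of all rows. In the kidney EC 4 were higher and 6 lower, against 16.7% and 15.0% of all rows. The adrenomedullin receptor *Calcrl* and its co-receptor *Ramp2* rose in both, *Ramp2* from 54.0 ± 5.59 to 878 ± 77.6 RPKM in the forebrain (log2 fold change 4.31 ± 0.10, adjusted p = 1.2e-12, edgeR) and from 119 ± 3.83 to 371 ± 32.9 RPKM in the kidney (2.00 ± 0.07, adjusted p = 2.6e-09). *Calcrl* rose by 3.42 ± 0.10 and 1.46 ± 0.07, and *Gpr182*, a scavenger receptor for chemokines, by 3.53 ± 0.15 and 2.70 ± 0.15. *Pdgfrb*, the receptor of PDGF-B on mural cells, was lower in both EC translatomes, by -0.44 ± 0.09 (adjusted p = 5.9e-04) and -1.42 ± 0.09 (adjusted p = 2.7e-07), and so was *Ackr3*, the scavenger receptor for CXCL12 that the files list as *Cxcr7* (-0.70 ± 0.09 and -0.56 ± 0.07). *Pdgfd* (3.17 ± 0.19) and *Pdgfra* (0.64 ± 0.12) were called as higher in the forebrain EC, and *Ramp3* (1.02 ± 0.15) in the kidney EC. *Pdgfc* was lower in both EC translatomes (-0.49 ± 0.09 and -2.14 ± 0.13), and in the kidney so were *Pdgfra* (-1.15 ± 0.11), *Pdgfa* (-1.45 ± 0.08) and *Apela* (-2.31 ± 0.16), which the files list as *Gm10664*. Several of these calls were close to the threshold. That of *Pdgfra* in the forebrain EC, whose RPKM overlapped between the groups, was lost by total reads (0.35, adjusted p = 0.019), in limma on log2(RPKM + 1) (0.27, adjusted p = 0.083), against the transcriptome (0.10, adjusted p = 0.43), with at least 10 reads in 3 samples (0.62, adjusted p = 1.1e-03) and without any of translatome replicates 1 and 3 and EC replicates 1 and 3. That of *Pdgfrb* in the forebrain EC was lost with the replicate block (adjusted p = 1.5e-03) and without any of translatome replicates 1 and 2 and EC replicates 2 and 3 (1.3e-03 to 4.6e-03). That of *Pdgfc* in the forebrain EC was lost against the transcriptome (-0.05, adjusted p = 0.62) and without translatome replicate 1, 2 or 3 or EC replicate 3 (1.3e-03 to 2.3e-03), that of *Ramp3* by total reads (0.66, adjusted p = 2.6e-03), in limma on log2(RPKM + 1) (0.61, adjusted p = 0.013) and without kidney translatome replicate 3 (0.95, adjusted p = 2.0e-03), and that of *Apela* against the transcriptome (-0.75, adjusted p = 2.5e-03).

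Between the endothelia, 2 of the 15 partners were higher in forebrain and 8 in kidney, against 20.1% and 16.9% of all rows. *Ramp2* was higher in forebrain EC (1.29 ± 0.09, adjusted p = 4.3e-07, edgeR), whereas its receptor *Calcrl* (-1.55 ± 0.09, adjusted p = 7.4e-08) and the alternative co-receptor *Ramp3* (-2.20 ± 0.15, adjusted p = 4.6e-07) were lower. *Calcrl* had 21.5 ± 2.22 RPKM in forebrain EC and 64.7 ± 3.02 in kidney EC, where *Adm* had 4.17 ± 0.29 RPKM. *Calca* was called as higher in forebrain (3.55 ± 0.49) at levels of 0.42 ± 0.0089 and 0.039 ± 0.013 RPKM. The other 6 that were higher in kidney were *Ackr3*, *Gpr182*, *Pdgfrb*, *Pdgfra*, *Pdgfa* and *Pdgfc*, with log2 fold changes from -1.68 to -0.98, and *Pdgfc* fell short of the threshold in limma on log2(RPKM + 1) (-0.80, adjusted p = 1.8e-03). The 8 mural cell markers were lower in 6 cases in this comparison (median -2.22), with summed levels of 34.6 to 41.0 RPKM in forebrain EC and 135 to 148 RPKM in kidney EC, and their part in the *Pdgfrb* value was not tested.

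**Figure D5:**
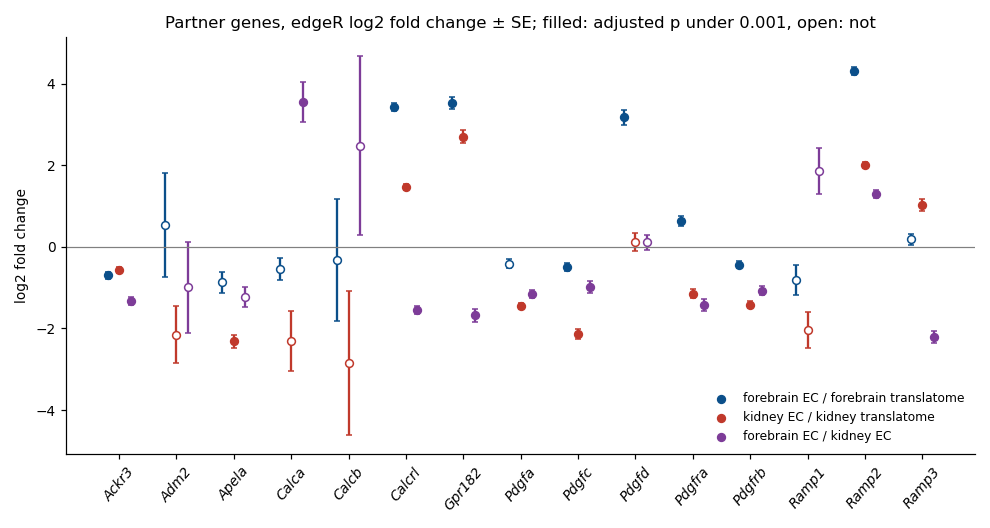
log2 fold changes (y axis, edgeR, ± SE) of 15 partner genes in 3 comparisons, n = 3 per group; filled points passed an adjusted p of 0.001. *Ramp2* stands above 0 in all 3 comparisons, and *Pdgfrb* and *Ackr3* stand below 0 in all 3.

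Of 24 further genes used as tip cell markers (with *Kdr* also among the 10 endothelial markers), 23 were higher in the forebrain EC translatome (median log2 fold change 3.53), where 24.8% of all rows were higher. In the kidney EC, where 16.7% of all rows were higher and 15.0% lower, 20 of these genes were higher and 1 lower (median 2.05). The largest rises were those of *Robo4* (4.74 ± 0.08), *Cd34* (4.70 ± 0.09) and the VEGF receptor *Flt4* (4.65 ± 0.08) in the forebrain, and *Robo4* (3.15 ± 0.08), the Notch ligand *Dll4* (3.11 ± 0.10) and the VEGF receptor *Kdr* (3.10 ± 0.07) in the kidney, while *Lcp2*, a signalling adaptor of blood cells, fell in the kidney (-0.91 ± 0.17, adjusted p = 7.5e-04, edgeR), a call lost with the replicate block (1.9e-03), against the transcriptome (-0.36, adjusted p = 0.11) and without any single replicate other than kidney EC replicate 2 (1.6e-03 to 5.2e-03). Between the endothelia, 7 were higher in forebrain and 8 in kidney, with *Lcp2* (3.38 ± 0.12), *Ankrd37* (2.22 ± 0.19) and the Tie2 ligand *Angpt2* (2.16 ± 0.15) at one end and *Plvap*, a component of fenestrae (-2.27 ± 0.11), *Plaur* (-1.82 ± 0.08) and *Kcne3* (-0.95 ± 0.15) at the other. The *Kcne3* call was lost in 1 fit of all samples (-0.84, adjusted p = 2.3e-03), in limma on log2(RPKM + 1) (-0.89, adjusted p = 3.1e-03) and without forebrain EC replicate 1 (-0.92, adjusted p = 1.6e-03). Tip cell markers thus moved in both directions between the organs, as the 7 genes did. So did all rows, of which 20.1% were called as higher in forebrain EC and 16.9% as lower. Of 8 macrophage markers, 6 were higher in forebrain than in kidney EC (median 1.35), at summed levels of 20.0 to 21.3 and 6.63 to 7.48 RPKM. Of 14 stalk and phalanx cell genes (with *Tek* and *Tie1* also among the 10 endothelial markers), 11 were higher and 2 lower in the forebrain EC, and 8 were higher in the kidney EC.

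Likeness in pattern across the groups was measured over the 7 group means of log2(RPKM + 1), centred on each gene's own mean, as the root mean square difference across 14549 rows. The nearest to *Aplnr* were the endothelial genes *Tie1* (0.17), *Cdh5* (0.18) and *Pecam1* (0.20). The nearest to *Apln* were *Cd40* (0.35), *Clec1b* (0.38) and *Srgn* (0.43), and *Pdgfb* was the nearest to it among the 7 (0.44). *Pdgfb* was nearest to *Lmo2* (0.21), *Esm1* to *Gimap5* (0.13), *Adm* to *Nod1* (0.13), *Cxcr4* to *Parp10* (0.11) and *Cxcl12* to *Tmem64* (0.18). The next nearest were *Parvb* and *Zfp366* for *Pdgfb*, *Ripply3* and *Abi3* for *Esm1*, *Akr1c14* and *Kcnq1* for *Adm*, *Tap2* and *Arap2* for *Cxcr4*, and *Wipi1* and *Rab32* for *Cxcl12*. Over the 21 samples in place of the group means, all 3 nearest names stayed for *Apln*, *Aplnr* and *Esm1*, and 2 of 3 for the other genes. *Apln* and its receptor *Aplnr* were 1.36 apart, and *Cxcl12* and its receptor *Cxcr4* 0.75. The ligands *Apln* and *Cxcl12* were 1.57 apart, and *Aplnr* and *Cxcr4*, the receptors, 1.93.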

How the data were processed

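RNA-seq of 21 samples in 7 groups of 3 was analysed from 1 table per sample. The authors made TruSeq libraries, mapped reads to GRCm38 (mm10) with RUM and counted them on UCSC refGene with rpkmforgenes, without normalization in the deposited counts, and deposited the RPKM computed from them by length and library size. Whether counting used strand is not given in the sources used here. No columns of per-sample values were left out.

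The quasi-likelihood test of edgeR (version 4.0.16, under R 4.3.3, with TMM factors) was applied to the counts of rows with at least 1 read in the fitted samples, with Benjamini-Hochberg adjustment over all rows and calls at 0.001. The SE of a log2 fold change was its size over the square root of F. The study used DESeq at the same threshold. There were 8 comparisons of 2 groups and 2 interactions in 12 samples. Alternatives were DESeq2 1.42.0, limma 3.58.1 on log2(RPKM + 1) or + 0.1, other size factors, total reads, at least 10 reads in 3 samples, 1 fit of all samples, replicate block, lane, the transcriptome as reference, a threshold of 0.05, and each replicate left out. Total counts were 21760652 to 79231692 reads. An exact permutation test of 3 against 3 cannot go below p = 0.1, so none was used for single genes. Replicates are separate tissue pools. No 2 libraries were alike, with a chi-square of at least 5.16 per row over 21 replicate pairs. The fits were tested on simulated data.

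Same-numbered transcriptome and translatome samples came from the same tissue, per the study's sample table (correlation of deviations 0.52 to 0.68 in forebrain and 0.63 to 0.67 in kidney), and same-numbered forebrain and kidney EC samples deviated together (0.16 to 0.34). Named are the 7 genes, partner genes with a call in the EC comparisons, the 3 largest rises and falls of the tip cell list, and the 3 rows nearest to each gene in pattern across the groups, among rows with a mean of at least 1 RPKM in any group. The genes and lists were chosen with earlier results of these data known.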

Additional observations from a re-analysis of the deposited data

Results flagged for a closer look

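The enrichment of EC over organ translatome differed between forebrain and kidney for each of the 7 genes, by the interaction test in edgeR over 12 samples. On the log2 scale the forebrain exceeded the kidney by 1.72 for *Apln* (adjusted p = 8.5e-08), 1.90 for *Aplnr* (3.6e-08), 1.16 for *Esm1* (7.6e-05), 0.96 for *Cxcr4* (4.1e-06), 1.61 for *Cxcl12* (2.6e-09), 1.57 for *Pdgfb* (2.5e-08) and 2.80 for *Adm* (2.7e-07). Across all rows 25.1% were called and the median was 0.15. All 10 endothelial markers were called too, between 1.43 and 1.90, and *Adm* lay above and *Esm1* and *Cxcr4* below them.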

How the results depend on the processing

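Of 1099 values of the 7 genes under the alternatives, 1042 kept direction and side of the threshold, 14 passed it newly, 22 lost it and 21 changed sign. The causes of these changes were not tested. The orders and overlaps of groups in RPKM rest on values without TMM factors. With TMM scaling, 22 of 49 mean RPKM of the 7 genes moved by over 1 SD. In limma on log2(RPKM + 1) and + 0.1, 1 gene was lower in kidney EC against the kidney translatome where counts gave 0 (*Cxcl12*, -0.85 and -0.86, against 0.09, and -0.28 by total reads), 2021 and 2286 rows were called for Emx1 against 4187, 1 of 2 genes was higher in the kidney translatome against transcriptome, and 0 of 1 was higher in forebrain in the transcriptomes and translatomes. With the transcriptome as reference, 9593 rows were called for Emx1, *Cxcl12* was called as higher in the kidney EC (0.90 in counts, with overlapping RPKM) and *Adm* lost its call in Emx1 (-1.16). Under a threshold of 0.05, called rows rose to 10509 (kidney EC), 11469 (between EC), 8580 (Emx1), 10855 and 9754 (translatome against transcriptome in forebrain and kidney), 8522 (organ difference in EC enrichment) and 4647 (in ribosome association). Genes lower became 1 in the forebrain and 1 in the kidney ribosome comparison, genes higher 5 in the latter, and genes lower 5 in the forebrain transcriptome against kidney.

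With the replicate block, 9496 rows were called in the kidney translatome against transcriptome, instead of 5929, with 5 genes higher and 1 lower, and in the forebrain 1 gene was called as lower (*Cxcr4*) and *Esm1* also as higher. For the organ difference in ribosome association 3445 rows were called with the block and 2669 by DESeq2, against 1301, and 0 of the 7 genes in each. The block changed no other call of the 7 genes, and ended those of *Pdgfrb* in the forebrain EC and *Lcp2* in the kidney EC. In the kidney ribosome comparison, 1 gene was higher with at least 10 reads in 3 samples, 4 in 1 fit of all samples, 4 by DESeq2 and 1 with lane as a term (3714 rows), and 1 gene was lower in the forebrain in 1 fit of all samples.

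Values near 0 changed sign without a call: *Cxcl12* between EC (-0.06) was 0.06 in 1 fit of all samples and 0.01 in limma at either pseudocount, and -0.12 to 0.01 with 1 replicate left out. *Cxcr4* in Emx1 (0.03) was -0.02 by total reads, -0.01 in limma at either pseudocount, -0.21 against the transcriptome and -0.05 to 0.12 with 1 replicate left out. For the organ difference in ribosome association, leaving out 1 replicate gave -0.29 to 0.00 for *Aplnr* (-0.15), -0.09 to 0.03 for *Cxcl12* (-0.03) and -0.19 to 0.49 for *Adm* (0.04), which was -0.04 in limma at a pseudocount of 1.

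Leaving out each replicate in turn gave 7146 to 9105 rows for forebrain EC, 4250 to 5799 for kidney EC, 5886 to 6683 between EC, 3117 to 3642 for Emx1, 6239 to 7016 and 4962 to 5483 for forebrain and kidney translatome against transcriptome, 9470 to 10012 and 8550 to 9830 between organ transcriptomes and translatomes, 4341 to 4881 for the organ difference in EC enrichment and 850 to 1248 in ribosome association. Counts of the 7 genes stayed as reported except in the ribosome comparisons, with 2 to 3 genes higher in forebrain and 1 to 3 in kidney. *Esm1* and *Adm* had as few as 9 and 13 reads in a library, which limits their values in Emx1.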
